A study of Mus musculus with 12 samples.

Results

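The genes described here are Nos2, Acod1, Arg1, Arg2, Ass1 and Slc7a2, which make nitric oxide, itaconate, ornithine and citrulline-derived arginine in macrophages or bring arginine into the cell. They were chosen by name, and 5 of the 6 had a row among the 27487 genes of the deposited table. Ass1, argininosuccinate synthase, is not analysed here. Of the 5, 4 were among the 16387 genes that passed the filter on low counts. Arg2 did not pass it, and Arg1 passed it only through its level in 1 group.

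The libraries came from BV2, an immortalised mouse microglial cell line, in 3 groups of 4. The CTR group held BV2 cells alone. In Neu, primary mouse neutrophils were added to the BV2 culture, with no stimulus named in the labels. In the Neu+NETS group the neutrophils had been treated with phorbol 12-myristate 13-acetate (PMA), a protein kinase C activator that makes neutrophils cast out extracellular traps (NETs) of chromatin and granule proteins. All 3 groups shared the cell line, and no genotype, age, sex, dose or culture time is given. No group held BV2 cells with PMA alone, so PMA, the traps and the stimulated neutrophils cannot be told apart. Whether neutrophils were removed before RNA extraction, and whether replicates were separate cultures, is not given either. What the p-values gauge is thus variation among the sequenced libraries, and part of it may be technical.

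Nos2 encodes the inducible nitric oxide synthase, which turns arginine into nitric oxide and citrulline in activated macrophages. Arg1 and Arg2 encode the cytosolic and the mitochondrial arginase, which compete with it for arginine and yield ornithine, the precursor of polyamines and proline. Slc7a2 encodes an arginine importer of the cationic amino acid transporter family, and Ass1 with Asl rebuilds arginine from citrulline. Acod1 encodes the mitochondrial enzyme that makes itaconate from cis-aconitate, an intermediate of the citric acid cycle. Itaconate inhibits succinate dehydrogenase, and Nos2 and Acod1 are textbook genes of macrophages exposed to bacterial products or interferon.

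The bases before the start of Acod1 are shown because this gene was among the most abundant transcripts of CTR and Neu and fell in Neu+NETS. RefSeq windows existed for 2 of the 6 genes, Acod1 and Ass1. This one spans 250 bases at chr14:103046762-103047011 of GRCm38.p6, plus strand, and ends just before the start of the gene. The capitals mark its single match to the hypoxia response core ACGTG, which lies on the minus strand from base -18 to base -14 counted back from the start.

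Acod1 upstream window: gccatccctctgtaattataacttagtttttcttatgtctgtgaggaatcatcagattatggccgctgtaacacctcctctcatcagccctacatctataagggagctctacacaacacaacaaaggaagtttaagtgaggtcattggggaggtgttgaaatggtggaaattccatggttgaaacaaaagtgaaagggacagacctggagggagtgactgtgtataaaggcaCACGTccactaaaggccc

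Of 32851 windows of the same length, 16.6% held ACGTG on either strand. The Acod1 window had no match on either strand for the NF-kappaB motif (in 1.41% of windows), the interferon-stimulated response element (in 2.98%), TGANTCA (AP-1, in 6.75%) or TTCNNNGAA (STAT, in 7.02%). It also had none for TTNNGNAA (C/EBP, in 36.8%) or TGATGNAA (C/EBP with ATF4, in 3.45%). These searches describe letters in 1 short window, and no motif overlapped the marked match. Looser forms of these sites were not sought, so their absence is not shown.

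Levels are given in FPKM, fragments scaled to transcript length and sequencing depth, and a group as mean ± SD of its 4 libraries (n = 4). Log2 fold changes are given ± SE with an adjusted p from a two-sided quasi-likelihood test in edgeR (Benjamini-Hochberg over all genes tested), and a gene is called when that p is under 0.05. The libraries held 53512190 to 68316549 estimated counts, at an apparent 4 units per sequenced fragment. This divisor is uncertain, and the fragment numbers and counting intervals below depend on it. The Neu+NETS group is compared with CTR and with Neu, and these comparisons share libraries, so their agreement is not used as evidence.

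Nos2 (ENSMUSG00000020826, chromosome 11 from 78811613 to 78851080, plus strand, GRCm39) was nearly silent in CTR, abundant in Neu and at the limit of detection in Neu+NETS. The 4 CTR libraries held 0.111, 0.243, 0.196 and 0.184 FPKM. The 4 Neu libraries held 92.3, 94.3, 90.9 and 105 FPKM, and the 4 Neu+NETS libraries 0.0416, 0.0299, 0 and 0. The 3 groups did not overlap. Neu stood far above the others, while CTR and Neu+NETS were both near 0. The lowest CTR library, at 0.111 FPKM, was above the highest Neu+NETS library, at 0.0416.

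In Neu the log2 fold change of Nos2 over CTR was 9.06 ± 0.14 (edgeR adjusted p = 2.6e-17), a 533-fold rise. It stood at place 3 among the rises of all 16387 genes and at place 1 among the 8125 genes with at least 5 FPKM in some group. Nos2 entered that smaller set only through Neu, the group where it is high, so place 1 there is not used as evidence. The CTR level rests on about 51 fragments over 4 libraries, and the ratio of fragments per library total was 526 with a 95% counting interval of 399.9 to 706. Among all genes listed, Nos2 moved from place 14505 in CTR to place 408 in Neu by mean FPKM, above 98.5% of genes. In bulk RNA, fewer cells of a type and less RNA per cell cannot be told apart.

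In Neu+NETS the log2 fold change of Nos2 against CTR was -3.35 ± 0.45 (edgeR adjusted p = 1.1e-05). About 6 fragments in 4 libraries stood against about 51, a ratio of 9.25 in favour of CTR with a counting interval of 3.97 to 26.4. A level of 3 fragments over the 4 libraries corresponds to 0.00989 FPKM, close to the measured mean of 0.0179 ± 0.0212. Without Neu+NETS replicate 1, the library with the highest value, the log2 fold change was -4.19 (adjusted p = 8.8e-06). Against Neu, the log2 fold change of Neu+NETS was -12.41 ± 0.19 (adjusted p = 7.5e-18), place 2 among all falls, and -13.25 without that library. The ratio of Neu to Neu+NETS fragments was 4867, with a counting interval of 2236 to 13264.

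Acod1 (ENSMUSG00000022126, chromosome 14 from 103284413 to 103294009, plus strand) was already one of the most abundant transcripts of BV2 cells alone. The CTR libraries held 130.1, 122, 129 and 129 FPKM, above 98.9% of the genes listed. The Neu libraries held 199, 208, 206 and 224 FPKM, and the Neu+NETS libraries 7.99, 7.49, 7.48 and 6.69. Every Neu library was above every CTR library, and every Neu+NETS library was far below both groups.

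The rise of Acod1 in Neu was 1.71-fold, with a log2 fold change of 0.77 ± 0.042 (edgeR adjusted p = 9.5e-11), place 2330 among rises of all genes tested. The fall in Neu+NETS against CTR was 17.8-fold, with a log2 fold change of -4.15 ± 0.05 (adjusted p = 1.5e-18). That fall stood at place 3 among the 8125 genes with at least 5 FPKM in some group. Against Neu the difference was -4.92 ± 0.051 (adjusted p = 1.2e-19), or 30.3-fold. Acod1 remained measurable in Neu+NETS, with about 1313 fragments over the 4 libraries, above 77.7% of genes listed, unlike Nos2.

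Nos2 and Acod1 thus changed by different amounts, and the ratio of their FPKM levels moved with the group. The Nos2 to Acod1 ratio was 0.00145 ± 0.00047 in CTR and 0.456 ± 0.0127 in Neu, with a range of 0.44 to 0.469 in Neu. In Neu+NETS it was 0.0023 ± 0.0027, a range that includes 0 because Nos2 had no fragment in 2 of the 4 libraries.

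**Figure D1:**
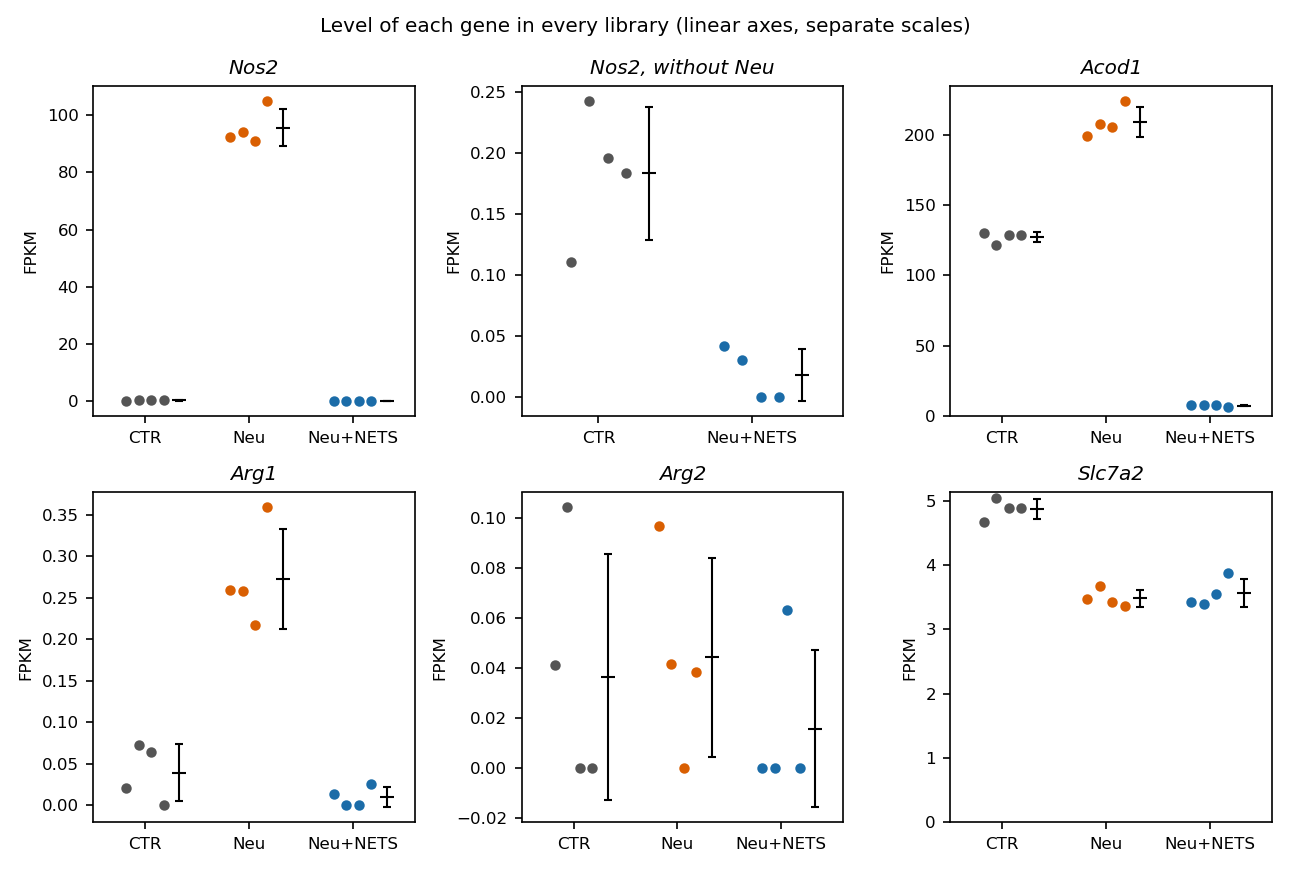
FPKM of the 5 genes with a row, on linear axes with a separate scale for each gene, in CTR (grey), Neu (orange) and Neu+NETS (blue); each point is 1 library in replicate order, the black bar is the mean and SD of 4 libraries, and the second panel repeats Nos2 for CTR and Neu+NETS alone. Nos2 is high only in the 4 Neu libraries (90.9 to 105 FPKM), Acod1 is lowest in Neu+NETS (6.69 to 7.99 FPKM), Slc7a2 is highest in CTR (4.66 to 5.04 FPKM), and error bars that reach below 0 come from groups with libraries at 0.

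Arg1 (ENSMUSG00000019987, chromosome 10 from 24791119 to 24803382, minus strand), the arginase of alternatively activated macrophages, was low everywhere and highest in Neu. The CTR libraries held 0.0207, 0.0725, 0.0642 and 0 FPKM. The Neu libraries held 0.259, 0.258, 0.217 and 0.359 FPKM, and the Neu+NETS libraries 0.0136, 0, 0 and 0.0261. Every Neu library lay above all others, while the CTR and Neu+NETS ranges overlapped.

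These Arg1 values rest on about 6 fragments in CTR, 44 in Neu and 2 in Neu+NETS. Since Arg1 passed the filter only through Neu, the group where it is high, its differences from Neu were read from the edgeR fit with no filter. There the log2 fold change in Neu against CTR was 2.64 ± 0.85 (adjusted p = 0.0291), and the fragment ratio was 6.63 with a counting interval of 2.82 to 19. Between Neu+NETS and Neu it was -4.57 ± 0.97 (adjusted p = 0.00159), a size that rests on the 2 fragments of Neu+NETS. With the filter these differences were 2.64 and -4.58, the latter -5.36 without Neu+NETS replicate 4. Between Neu+NETS and CTR the filtered fit gave -1.94 ± 0.95 and did not pass (adjusted p = 0.111, 95% interval -4 to 0.071). That last comparison passed only when CTR replicate 4, a library at 0, was left out (-2.34, adjusted p = 0.0337).

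At its highest, Arg1 stayed far under Nos2, at 0.273 ± 0.0604 against 95.6 ± 6.31 FPKM in Neu. In CTR the Arg1 mean of 0.0394 ± 0.0347 FPKM was also under that of Nos2, 0.183 ± 0.0547, and the 2 ranges did not overlap. In Neu+NETS both genes were listed at 0 in 2 of 4 libraries, and their levels could not be ordered at this depth.

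Arg2 (ENSMUSG00000021125, chromosome 12 from 79177551 to 79203075, plus strand) could not be tested. The CTR libraries held 0.0413, 0.104, 0 and 0 FPKM, the Neu libraries 0.0967, 0.0417, 0 and 0.0385, and the Neu+NETS libraries 0, 0, 0.0629 and 0. The 3 groups overlapped, and about 4, 5 and 2 fragments stood behind their means, so no fold is given. The annotated span of Arg2 overlaps Vti1b and Gm48780 on the opposite strand, the more abundant of which reached 49.7 FPKM. The strand setting of the counting is not known from these sources, so even these few fragments are uncertain.

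Slc7a2 (ENSMUSG00000031596, chromosome 8 from 41315433 to 41375345, plus strand) was modestly lower in both co-cultures. The CTR libraries held 4.66, 5.04, 4.89 and 4.89 FPKM, the Neu libraries 3.47, 3.67, 3.42 and 3.36, and the Neu+NETS libraries 3.42, 3.4, 3.55 and 3.88. All 4 CTR libraries were above all 8 others, and Neu and Neu+NETS overlapped.

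The fall of Slc7a2 was 1.35-fold in Neu (log2 fold change -0.43 ± 0.052, edgeR adjusted p = 2.0e-06) and 1.42-fold in Neu+NETS (-0.50 ± 0.052, adjusted p = 5.3e-07). The difference between Neu+NETS and Neu, -0.072 ± 0.052, did not pass (adjusted p = 0.247, 95% interval -0.18 to 0.039), and its sign turned to 0.025 with limma on log2(FPKM + 1).

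Read against all genes, the calls were common in these data, and Arg1 is left out of the counts because it was tested only through its level in Neu. In Neu against CTR, the share of all genes tested that were called was 26.1% for rises and 27.9% for falls, and of the other 3 tested genes Nos2 and Acod1 were higher and Slc7a2 was lower. In Neu+NETS against CTR, these shares were 21.6% and 23.7%, and all 3 were lower. In Neu+NETS against Neu, they were 29.4% and 33.1%, and Nos2 and Acod1 were lower. Calls with a log2 fold change of at least 1 were rarer. Such rises made up 6.63% of genes in Neu against CTR, where Nos2 was among them. Such falls made up 5.67% in Neu+NETS against CTR, where Nos2 and Acod1 were among them, and 12.7% in Neu+NETS against Neu, where both were again.

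**Figure D2:**
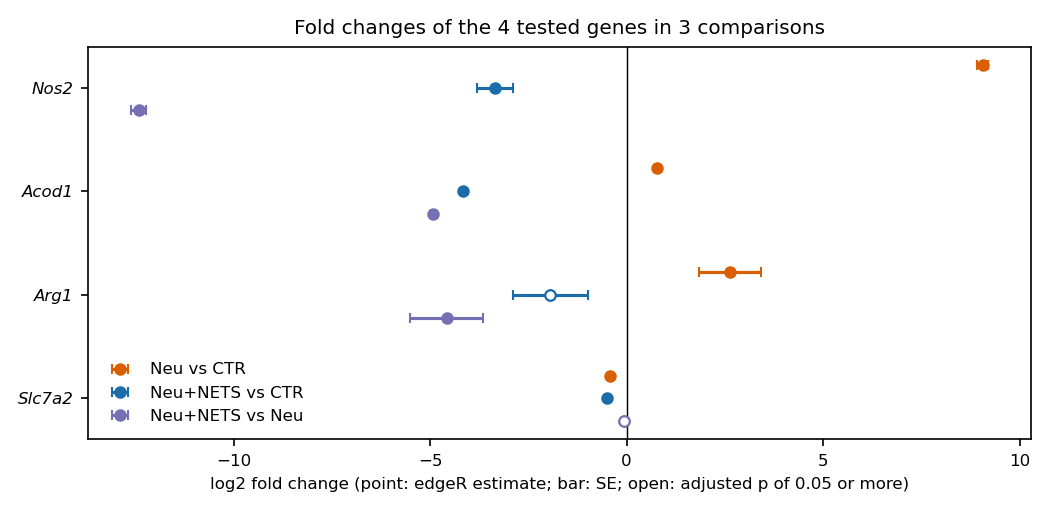
Log2 fold change (x axis, edgeR estimate with SE bars) of the 4 tested genes in Neu against CTR (orange), Neu+NETS against CTR (blue) and Neu+NETS against Neu (violet); an open point has an adjusted p of 0.05 or more. Nos2 spans the widest range, from -12.41 to 9.06, while Slc7a2 lies within -0.50 to -0.072.

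The libraries held abundant transcripts of macrophages. S100a8 and the neutrophil granule genes Mpo, Elane, Lcn2, Mmp9 and Prtn3 reached at most 1.55 FPKM in any library. Other listed neutrophil markers were higher, among them Slpi, Ifitm6, Trem1, Csf3r, Il1r2 and Cebpe, and their values in CTR are given below. Summed FPKM of 16 macrophage and microglia markers was 1126 to 1184 in CTR, 1124 to 1164 in Neu and 692 to 705 in Neu+NETS, led by Cd68 at 419 ± 18.2, 378 ± 8.54 and 351 ± 7.12. All 16 were called lower in Neu+NETS against CTR, where 23.7% of all genes were. Retina is a tissue name in the labels, but the 5 retinal markers with a row summed to at most 1.06 FPKM, and Nrl, a rod photoreceptor factor, was at 0 in CTR and Neu+NETS. Lymphocyte markers (5 of 10 with a row) summed to at most 0.138 FPKM and erythroid markers (4 of 7) to 0.401 to 1.65.

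The summed level of 12 mature neutrophil markers with a row, of 20 listed, moved in the same order as Nos2. It was 51.2 to 55.7 FPKM in CTR, 87.5 to 88.7 in Neu and 22.9 to 26.9 in Neu+NETS. Slpi, an antiprotease that BV2 cells alone also expressed, was the largest term at 26.6 ± 1.86, 35.9 ± 1.06 and 18.7 ± 1.42 FPKM. BV2 cells alone also held Ifitm6 at 11.1 ± 0.282, Trem1 at 8.83 ± 0.3 and Csf3r at 5.15 ± 0.23 FPKM. Because CTR had no added neutrophils, the sum of these markers cannot gauge neutrophil content. Of the 11 tested, 7 were called higher in Neu and 9 lower in Neu+NETS against CTR, where 26.1% and 23.7% of all genes were. Asprv1 was at 0 in CTR and Mmp8 at 0 in Neu+NETS.

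S100a8, among the most abundant transcripts of mature neutrophils, was listed at 0.257 ± 0.249 FPKM in CTR, 0.189 ± 0.0455 in Neu and 0.0547 ± 0.0703 in Neu+NETS. Of 7 precursor markers with a row, Mpo stood at 0.00219 ± 0.00438 and Elane at 0.0969 ± 0.0827 FPKM in Neu, and Camp, Elane, Mpo and Ngp were at 0 in Neu+NETS. Their sum, 15.6 to 18.2, 19.5 to 23.2 and 7.16 to 9.29 FPKM in the 3 groups, was mostly Cebpe, which BV2 cells alone held at 16.4 ± 1.25. Il1r2, a decoy receptor listed with the neutrophil markers and singled out after its values were seen, went from 0.32 ± 0.0685 in CTR to 8.03 ± 0.302 in Neu and 0.0425 ± 0.0299 in Neu+NETS. The granule genes Lcn2, Mmp9 and Prtn3, also singled out afterwards, were low but higher in Neu than in CTR. Lcn2 went from 0.223 ± 0.0644 to 0.95 ± 0.0621 FPKM, Mmp9 from 0.548 ± 0.185 to 1.46 ± 0.0717 and Prtn3 from 0.0645 ± 0.0809 to 0.399 ± 0.0624. Listed markers without a row could not be judged. The part of these marker shifts in the Nos2, Acod1 and Arg1 results was not tested.

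More of the other arginine carriers fell than rose in Neu, and more rose than fell in Neu+NETS, where Slc7a2 fell. Of 7 tested transport genes, 1 was called higher and 4 lower in Neu against CTR, where 26.1% and 27.9% of all genes were, with a median log2 fold change of -0.51 against 0.02 over all genes. The higher one, Slc7a7, singled out after its values were seen, had a log2 fold change of 0.32 ± 0.12 (edgeR adjusted p = 0.0367), a call lost in 8 of 23 alternative analyses. In Neu+NETS against CTR, 3 were higher and 1 lower, where 21.6% and 23.7% of all genes were, with a median of 0.46 against 0.00021. Slc7a1, the ubiquitous importer of arginine and lysine, held 14.2 ± 0.417 FPKM in CTR and fell to 7.29 ± 0.137 with neutrophils (-0.91 ± 0.028 on the log2 scale, edgeR adjusted p = 8.1e-14). In Neu+NETS it reached 20.7 ± 0.221 (0.49 ± 0.028, adjusted p = 2.4e-10). Slc7a6, the light chain of an exchanger of cationic and neutral amino acids, followed the same order at 20.8 ± 1.41, 14.1 ± 0.18 and 29.5 ± 0.897 FPKM, and both co-cultures passed.

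Per length, Slc7a1 was the more abundant importer in every group, and its ratio to Slc7a2 differed between the 3. The ratio was 2.92 ± 0.0453 in CTR, 2.1 ± 0.118 in Neu and 5.83 ± 0.354 in Neu+NETS, with no overlap between groups. Slc3a2, the heavy chain that partners Slc7a6, and Slc25a15, the mitochondrial ornithine carrier, were chosen after their values were seen. Both fell in Neu, with log2 fold changes of -0.25 ± 0.034 and -0.61 ± 0.078 (edgeR adjusted p = 5.8e-06 and 3.3e-06).

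Asl, argininosuccinate lyase, which frees arginine in the last step of citrulline recycling, rose in both co-cultures. It was the only one of 4 listed genes of citrulline and arginine synthesis with a row. The CTR mean of 6.85 ± 0.383 FPKM compared with 9.98 ± 0.285 in Neu (0.60 ± 0.049 on the log2 scale, edgeR adjusted p = 1.5e-08) and 8.81 ± 0.306 in Neu+NETS (0.31 ± 0.049, adjusted p = 4.9e-05). Neu+NETS was also lower than Neu, with a log2 fold change of -0.28 ± 0.048 (adjusted p = 6.5e-05).

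Nitric oxide synthases need tetrahydrobiopterin, and the genes that make and recycle it moved in both directions in Neu. Of 7 tested, 2 were higher and 3 lower in Neu against CTR, where 26.1% and 27.9% of all genes were, and 1 to 3 were higher across the alternative analyses. Against CTR, 3 were higher and 0 lower in Neu+NETS, where 21.6% and 23.7% of all genes were. With 7 genes, the counts of rises in Neu are near those shares. Gch1, the first and rate-limiting enzyme, was at 4.33 ± 0.266 FPKM in CTR and rose to 7.81 ± 0.552 in Neu (0.90 ± 0.056 on the log2 scale, edgeR adjusted p = 4.0e-10). It reached 8.1 ± 0.387 in Neu+NETS (0.85 ± 0.056, adjusted p = 1.7e-09), where Nos2 was almost absent. The difference of Gch1 between the co-cultures was -0.052 ± 0.054 and did not pass (adjusted p = 0.429). The FPKM means lie the other way, and 5 of 23 alternative analyses gave the other sign.

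Spr, which completes the cofactor, went from 11.8 ± 0.647 to 8.06 ± 0.267 FPKM in Neu and 14 ± 0.602 in Neu+NETS. It fell in Neu by 0.49 ± 0.051 on the log2 scale (edgeR adjusted p = 3.2e-07) and rose in Neu+NETS by 0.20 ± 0.051 (adjusted p = 0.00399).

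Among the other synthases and their modulators, 3 of 7 tested were higher and 3 lower in Neu against CTR, where 26.1% and 27.9% of all genes were. Against CTR, 1 was higher and 2 lower in Neu+NETS, near the 21.6% and 23.7% of all genes. Nos1, the neuronal synthase, was chosen after its values were seen. It moved in the order of Nos2 at far lower levels, 0.888 ± 0.0783, 2.25 ± 0.409 and 0.21 ± 0.0466 FPKM in CTR, Neu and Neu+NETS. Its log2 fold changes against CTR were 1.39 ± 0.15 in Neu and -2.13 ± 0.16 in Neu+NETS (edgeR adjusted p = 3.4e-07 and 9.1e-09). Nos3, the endothelial synthase, did not pass the filter on low counts. Of the 2 tested genes that remove nitric oxide, Cyb5r3, a reductase that restores the haem of globins, rose from 32.6 ± 1.43 to 43.3 ± 1.66 FPKM in Neu (0.47 ± 0.034, adjusted p = 3.9e-09) and stood at 32.4 ± 0.825 in Neu+NETS.

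Ornithine, the product of arginase, feeds polyamine and proline synthesis, and most genes of these routes fell in Neu. Of 23 tested, 3 were called higher and 13 lower in Neu against CTR, where 26.1% and 27.9% of all genes were. The median log2 fold change was -0.21. In Neu+NETS against CTR, 5 were higher and 4 lower, near the 21.6% and 23.7% of all genes, with a median of 0.056. Against Neu, 13 were higher and 6 lower in Neu+NETS, where 29.4% and 33.1% of all genes were.

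Odc1, ornithine decarboxylase, the entry to polyamines, held 136 ± 3.79 FPKM in CTR, against 130.4 ± 0.881 in Neu, with no call (-0.0031 ± 0.024 on the log2 scale, edgeR adjusted p = 0.926). In Neu+NETS it rose to 244 ± 2.16 (0.80 ± 0.024, adjusted p = 9.0e-14). Srm, spermidine synthase, fell 2.79-fold in Neu, from 179.7 ± 3.76 to 62.1 ± 6.02 FPKM (-1.48 ± 0.048, adjusted p = 1.5e-13). In Neu+NETS Srm stood at 191 ± 8.91 and did not pass against CTR (0.037 ± 0.047, adjusted p = 0.57).

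Smox, spermine oxidase, which breaks spermine down with release of hydrogen peroxide, moved the other way. It rose 4.02-fold in Neu, from 13.3 ± 0.235 to 51.4 ± 1.75 FPKM (log2 fold change 2.01 ± 0.033, edgeR adjusted p = 4.2e-17), and stood at 14.3 ± 0.462 in Neu+NETS. Azin2, an antizyme inhibitor chosen after its values were seen, rose 4.08-fold in Neu from 0.672 ± 0.168 to 2.65 ± 0.28 FPKM (adjusted p = 1.3e-08). Sat1, the acetyltransferase that marks polyamines for export and also chosen afterwards, fell in Neu+NETS from 77.4 ± 0.836 to 47.4 ± 1.17 FPKM (-0.76 ± 0.029, adjusted p = 1.9e-12).

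Aldh18a1 and Pycr3, of the proline branch, fell in Neu. Aldh18a1, which starts proline synthesis from glutamate, went from 41 ± 2.08 to 25.1 ± 0.977 FPKM, a log2 fold change of -0.65 ± 0.037 (edgeR adjusted p = 1.2e-10). Pycr3, a cytosolic reductase of the last step, fell 2.09-fold, from 31.7 ± 2.49 to 14.6 ± 0.769 FPKM (adjusted p = 1.2e-10). In Neu+NETS, Aldh18a1 was slightly above CTR, by 0.23 ± 0.036 on the log2 scale (adjusted p = 4.5e-05), and Pycr3 did not pass (adjusted p = 0.445).

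Arginine is also used for creatine and is methylated within proteins. Of 12 tested genes of these routes, 7 were called lower and 2 higher in Neu against CTR, where 27.9% and 26.1% of all genes were. Prmt1, the main methyltransferase for protein arginine, fell from 51.5 ± 1.56 to 28.3 ± 1.08 FPKM (log2 fold change -0.81 ± 0.033, edgeR adjusted p = 2.2e-12). Prmt7, which adds single methyl groups, fell from 20.6 ± 0.544 to 10.2 ± 0.583, and Prmt6 and Prmt5 also fell. Prmt2 was an exception and rose from 16.8 ± 0.423 to 25.8 ± 0.468 FPKM (0.67 ± 0.035, adjusted p = 4.8e-11). Ckb, brain creatine kinase, rose in Neu to 63.3 ± 3.13 and fell in Neu+NETS to 35.3 ± 0.953 FPKM from 54.3 ± 0.571 in CTR.

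**Figure D3:**
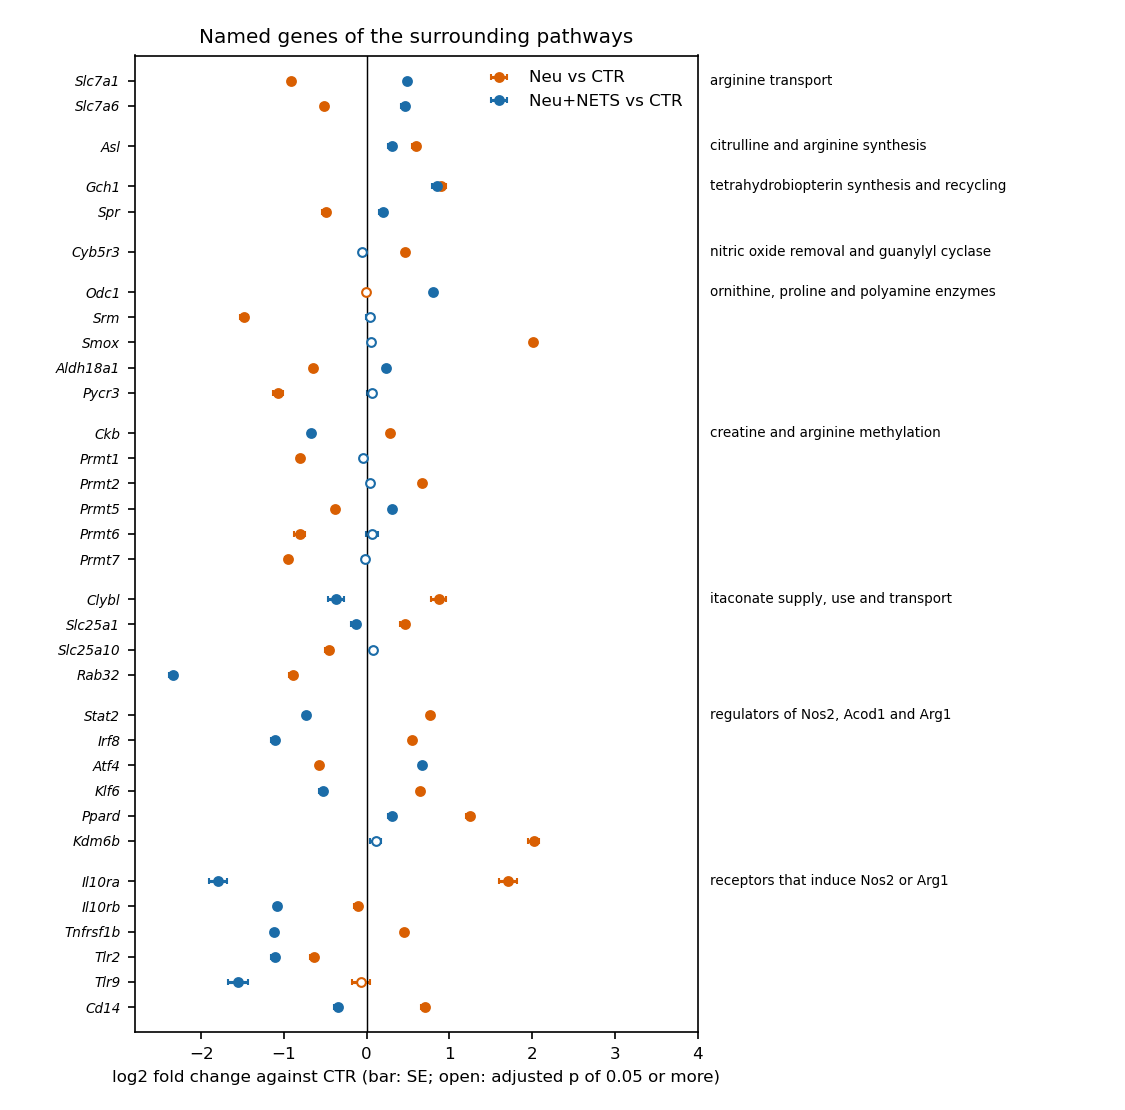
Log2 fold change against CTR (x axis, edgeR estimate with SE bars) of 33 named genes of the surrounding pathways, grouped by role at the right, in Neu (orange) and Neu+NETS (blue); an open point has an adjusted p of 0.05 or more. Slc7a1, Slc7a6, Spr and Aldh18a1 lie left of 0 in Neu and right of 0 in Neu+NETS, Gch1 and Asl lie right of 0 in both, and Rab32 lies left of 0 in both, at -0.89 and -2.34.

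Among genes that supply, degrade and move itaconate, more fell than rose in each co-culture, and none fell as far as Acod1 in Neu+NETS. Of 19 tested, 4 were higher and 9 lower in Neu against CTR (median log2 fold change -0.11), where 26.1% and 27.9% of all genes were. The rises in Neu were thus not above the share over all genes. In Neu+NETS against CTR, 1 was higher and 11 lower (median -0.25), where 21.6% and 23.7% of all genes were. Rab32, a GTPase that brings itaconate to vacuoles with bacteria, fell in both, from 47.4 ± 1.8 FPKM in CTR to 24.6 ± 1.05 in Neu and 9.67 ± 0.632 in Neu+NETS. Its log2 fold changes were -0.89 ± 0.049 and -2.34 ± 0.052 (edgeR adjusted p = 1.1e-10 and 2.4e-15).

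Clybl, which acts on citramalyl-CoA in the breakdown of itaconate, rose from 11.8 ± 1.54 to 20.8 ± 1.1 FPKM in Neu (log2 fold change 0.87 ± 0.093, edgeR adjusted p = 4.2e-07). In Neu+NETS it was at 9.41 ± 0.902 (-0.37 ± 0.094, adjusted p = 0.00345), with ranges that overlapped CTR. Slc25a1, the mitochondrial citrate carrier, rose in Neu from 25.1 ± 2.05 to 33.1 ± 0.384 FPKM (0.46 ± 0.052, adjusted p = 1.0e-06). Its call in Neu+NETS against CTR (-0.13 ± 0.053, adjusted p = 0.0463) was lost in 18 of 23 alternative analyses. Slc25a10, the dicarboxylate carrier, fell in Neu from 19.6 ± 0.526 to 13.7 ± 0.973 FPKM.

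The subunits of succinate dehydrogenase, the enzyme that itaconate inhibits, were chosen after their values were seen. Sdha, Sdhb and Sdhc had log2 fold changes of -0.33 ± 0.033, -0.35 ± 0.037 and -0.28 ± 0.043 in Neu+NETS, all called (the largest edgeR adjusted p being 3.6e-05), and Sdhd did not pass there (adjusted p = 0.997). These falls came to 1.22- to 1.27-fold, against 17.8-fold for Acod1.

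Of 25 regulators known to act on Nos2, Acod1 or Arg1, 10 were higher and 8 lower in Neu against CTR (median log2 fold change 0.046). The shares over all genes in that comparison were 26.1% and 27.9%. In Neu+NETS against CTR, 3 were higher and 19 lower (median -0.53), where 21.6% and 23.7% of all genes were. Irf8, an interferon regulatory factor of the macrophage lineage, moved in the order of Acod1, at 11.6 ± 0.342, 16.4 ± 0.691 and 5.57 ± 0.292 FPKM in CTR, Neu and Neu+NETS. Its log2 fold changes were 0.55 ± 0.04 and -1.11 ± 0.041 (edgeR adjusted p = 3.5e-09 and 1.3e-12). Stat2, which carries type I interferon signals, and Klf6, a zinc finger factor, had the same order, with 9.11 ± 0.19, 15 ± 0.449 and 5.7 ± 0.303 FPKM for Stat2.

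Kdm6b, a histone demethylase that removes the repressive H3K27 methyl mark, rose 4.06-fold in Neu, from 3.99 ± 0.295 to 15.6 ± 1.11 FPKM (log2 fold change 2.02 ± 0.064, edgeR adjusted p = 1.1e-13). In Neu+NETS it stood at 4.44 ± 0.366 and did not pass (adjusted p = 0.204). Ppard, a lipid-sensing nuclear receptor, rose in both, by 1.25 ± 0.048 in Neu and 0.31 ± 0.048 in Neu+NETS. Atf4, the effector of the response to amino acid shortage, went from 79.7 ± 1.66 to 51.5 ± 2.78 FPKM in Neu and to 131 ± 2.88 in Neu+NETS, the order of Slc7a1.

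Hif1a, which binds the hypoxia response core, Stat3 and Nfkb2 were chosen after their values were seen. Hif1a mRNA did not pass in Neu (log2 fold change 0.041 ± 0.035, edgeR adjusted p = 0.362) and rose slightly in Neu+NETS (0.24 ± 0.035, adjusted p = 3.0e-05). Stat3 and Nfkb2 rose in Neu by 0.71 ± 0.038 and 0.58 ± 0.045 (adjusted p = 5.9e-11 and 6.4e-09). Nfkb2 did not pass in Neu+NETS (adjusted p = 0.374).

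Most receptors for signals that induce Nos2 or Arg1 were lower in Neu+NETS. Of 18 tested, 0 were called higher and 15 lower in Neu+NETS against CTR (median log2 fold change -0.38), where 21.6% and 23.7% of all genes were. In Neu against CTR, 6 were higher and 6 lower (median -0.043), where 26.1% and 27.9% of all genes were. Il10ra, the ligand-binding chain for interleukin 10, held 3.42 ± 0.419, 10.8 ± 0.548 and 1.02 ± 0.181 FPKM in CTR, Neu and Neu+NETS. Its log2 fold changes were 1.71 ± 0.11 and -1.80 ± 0.11 (edgeR adjusted p = 4.8e-10 and 1.3e-09).

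Cd14, the co-receptor for lipopolysaccharide, went from 96.2 ± 1.67 to 149.9 ± 11.3 FPKM in Neu and 77.9 ± 4 in Neu+NETS, the order of Acod1. Tnfrsf1b, a receptor for tumour necrosis factor, had that order too, at 44.9 ± 1.11, 58.8 ± 3.37 and 21.3 ± 1.03 FPKM. Tlr2, a sensor of bacterial lipoproteins, fell in both, from 57.3 ± 3.22 to 35.4 ± 0.828 in Neu and 27.5 ± 1.56 in Neu+NETS. Tlr9, the sensor of CpG DNA, did not pass in Neu (adjusted p = 0.624 in edgeR) and fell in Neu+NETS from 5.23 ± 0.294 to 1.83 ± 0.353 FPKM (-1.56 ± 0.12, adjusted p = 8.0e-09). Ifngr2, an interferon gamma receptor chain chosen after its values were seen, fell in Neu+NETS, with a log2 fold change of -0.76 ± 0.059 (adjusted p = 1.5e-08).

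Across all 10 pathway lists, the 121 tested genes gave 33 calls of a rise and 53 of a fall in Neu against CTR. Over all genes these shares were 26.1% and 27.9%, so the rises were near the share over all genes. In Neu+NETS against CTR the lists gave 20 and 55, where 21.6% and 23.7% of all genes were called. The median log2 fold changes were -0.072 and -0.096, against 0.02 and 0.00021 over all genes tested.

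The genes whose levels tracked each member most closely were found by Pearson's r of log2(FPKM + 1) over the 12 libraries. Since the libraries fall into 3 groups, r mostly describes 3 group means. For Nos2 they were Gys1 (r = 0.9989), Ddit4 (0.9986), P4hb (0.9981), Selenbp1 (0.9979) and Hk1 (0.9976) among 7608 genes. Gys1, muscle-type glycogen synthase, held 23.3 ± 0.601, 104 ± 5.79 and 23 ± 1.12 FPKM in CTR, Neu and Neu+NETS. Ddit4, an inhibitor of mTORC1 induced by stress and low oxygen, held 9.69 ± 0.329, 64.9 ± 3.07 and 9.68 ± 0.649.

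For Acod1 the closest were Mpeg1 (r = 0.9992), Ifi211 (0.9990), Cd200r4 (0.9986), Csf1 (0.9974) and Siglec1 (0.9972). Mpeg1, a pore-forming protein of macrophages, held 149 ± 0.899, 185 ± 2.02 and 39.2 ± 0.797 FPKM. Siglec1, a sialic acid receptor of macrophages, held 33.6 ± 1.35, 43.3 ± 3.9 and 4.42 ± 0.346. Selenbp1 and Ifi211 have close paralogs that can share reads, so their levels are uncertain. For Arg1 they were Ptk2b (0.9856), Myo1g (0.9846) and Tnrc18 (0.9821), and for Slc7a2 Dtx4 (0.9787), Arhgap19 (0.9750) and Otulinl (0.9732), among 7609 genes.

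Neighbouring genes, examined after the values of the members were known, moved far less than Nos2. Lgals9, which encodes galectin-9 and lies 2.72 kb from Nos2, held 72.6 FPKM without and 73.6 with neutrophils (a log2 fold change of 0.08 ± 0.033, edgeR adjusted p = 0.0596). It fell to 48.1 in Neu+NETS (-0.64 ± 0.033, adjusted p = 7.3e-11). Of the 6 nearest tested genes, Wsb1, 279 kb away, had the largest rise in Neu, 0.86 ± 0.029 (adjusted p = 2.0e-13).

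Near Acod1, Kctd12, 64.3 kb away, fell in both co-cultures, with log2 fold changes of -0.84 ± 0.04 and -1.74 ± 0.042 (edgeR adjusted p = 1.8e-11 and 5.4e-15). Gm34643, an unnamed gene model 22.5 kb away, moved in the order of Acod1, at 0.909, 1.73 and 0.248 FPKM (0.98 ± 0.33 and -1.89 ± 0.36, adjusted p = 0.0203 and 3.6e-04). Med23, 1.54 kb from Arg1, passed in neither (adjusted p = 0.148 and 0.647).

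**Figure D4:**
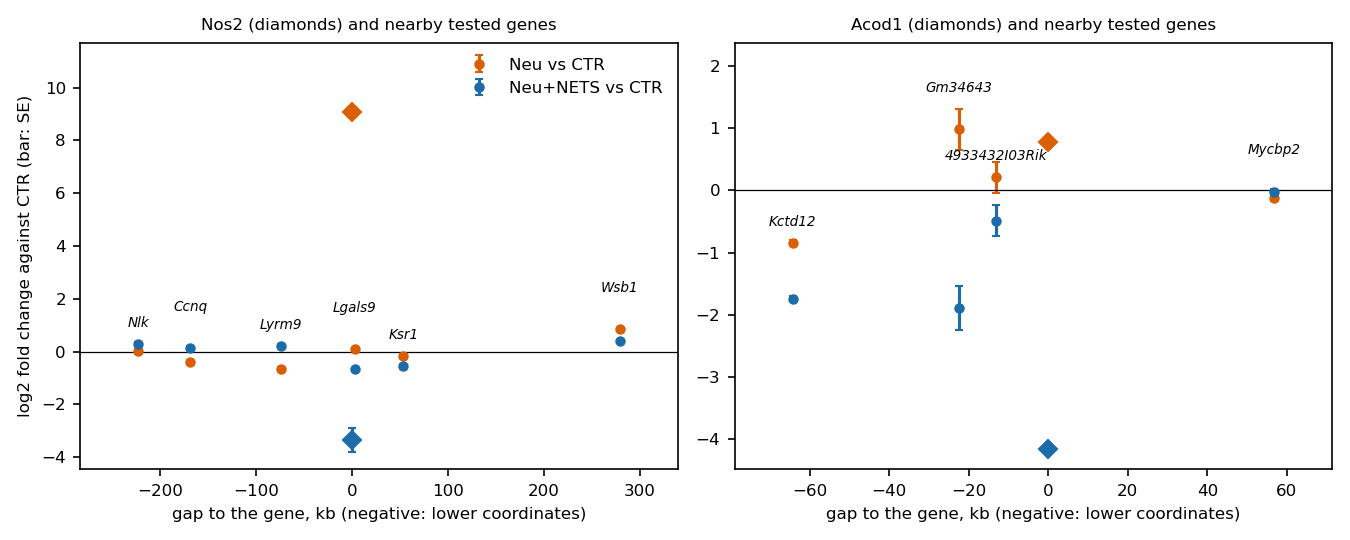
Log2 fold change against CTR (y axis, edgeR estimate with SE bars) in Neu (orange) and Neu+NETS (blue) of Nos2 and Acod1 (diamonds) and nearby tested genes, by gap in kb (x axis, negative toward lower coordinates). Nos2 at 9.06 and -3.35 and Acod1 in Neu+NETS at -4.15 stand apart from their neighbours, which lie between -1.89 and 0.98. Acod1 in Neu, at 0.77, lies within that range.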

How the data were processed

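Polyadenylated RNA was sequenced in 12 libraries, 4 per group, per the labels' protocols, and the sample titles gave the group and number of each. Tools named by the submitters' processing notes, without roles, are HISAT2 2.0.4, StringTie 1.3.4d and edgeR, and the build is GRCm39. Not given in the sources used here: annotation release, strand setting and filters. The deposited table gives an estimated count and an FPKM for each gene and library. Estimated counts in the deposited table are whole numbers, unscaled between libraries, with totals of 53512190 to 68316549. Of values from 2 to 41, 33.0% were multiples of 4 where an even spread gives 25%, so fragments were taken as units divided by 4. Most of these values were not multiples of 4, so the divisor is uncertain. Per the file headers, the FPKM values are the authors' own. Columns left unmatched to a sample numbered 0.

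Members and lists were chosen with earlier results of these data known. Genes were filtered with filterByExpr, scaled by TMM (factors 0.970 to 1.03) and tested in 1 quasi-likelihood fit of all 12 libraries, with a mean per group (edgeR 4.0.16, R 4.3.3), and p-values were adjusted by Benjamini-Hochberg. The common biological coefficient of variation was 12.5%. SE is the log2 fold change over the square root of F. A floor of 3 fragments (12 units) marks an unresolved absence. Floors and exact 95% intervals of fragment ratios cover counting error only and hold only if 4 units stand for 1 fragment. The fit was tested on simulated data.

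Named genes are the members, up to 6 called genes per pathway list with an absolute log2 fold change of at least 0.5 and at least 5 FPKM, the genes most like each member, and markers. Others are marked as chosen after their values were seen. Some listed or nearby genes are not reported here, though counts and medians over lists include them. Alternatives were limma 3.58.1 on log2(FPKM + 1), + 0.1 and + 0.5 (mean FPKM of at least 1) and on all genes, DESeq2 1.42.0, RLE or no TMM factors, no filter, 2 groups only, a replicate block, counts divided by 4, and each library left out.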

Additional observations from a re-analysis of the deposited data

Results flagged for a closer look

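In 10 of 114 groups of 4 libraries checked, 1 library stood apart, its gap to the nearest other divided by the range exceeding Dixon's 95% critical value for groups of that size. Chance gives about 1 in 20. Acod1 in CTR replicate 2 was the lowest of its group, at 122 FPKM against 129 to 130.1 (ratio 0.901). Arg2 in Neu+NETS replicate 3 was 0.0629 FPKM where the other 3 were at 0 (ratio 1).

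Of the pathway genes, 3 stood high in Neu replicate 4. Gch1 was 8.63 FPKM against 7.42 to 7.63 (ratio 0.831), Prmt7 11.1 against 9.87 to 9.97 (0.919) and Irf8 17.4 against 15.9 to 16.2 (0.837). Spr in Neu replicate 3 was 8.46 FPKM against 7.9 to 7.96 (ratio 0.894).

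In CTR, Slc25a10 was high in replicate 2, at 20.4 FPKM against 19.2 to 19.4 (ratio 0.843). Tlr9 was low in CTR replicate 2, at 4.79 FPKM against 5.34 to 5.43 (0.863). In Neu+NETS replicate 1, Clybl was high at 10.8 FPKM against 8.93 to 9 (0.959), and Cd14 was low at 72 against 79.2 to 80.7 (0.831).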

How the results depend on the processing

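Every called member kept its sign and its call in each of up to 23 alternatives that gave a value. Arg1, being low, had a value in 18 or 19 of them. Slc7a2 between Neu+NETS and Neu turned to 0.025, 0.031 and 0.028 with limma on log2(FPKM + 1), + 0.1 and + 0.5, and to 0.025 with all genes, never past the threshold. Arg1 in Neu+NETS against CTR passed without CTR replicate 4 and ranged from -2.72 to -1.52 over single omitted libraries. The pseudocount shrinks low genes: Nos2 in Neu against CTR ranged from 6.35 to 9.24, Nos2 in Neu+NETS against CTR from -4.19 to -0.22 and Acod1 there from -4.19 to -3.94. Arg1 ranged from 0.29 (limma, all genes) to 3.04 in Neu against CTR and from -5.36 to -0.33 (limma, all genes) in Neu+NETS against Neu. Counts of calls over all genes and over the pathway genes together stayed within 1.5 times in all alternatives, but counts in single lists did not. In Neu+NETS against CTR, rises ranged from 5 to 8 among polyamine and proline genes, 3 to 5 among regulators, 0 to 2 among itaconate genes and 1 to 2 among other synthases, where falls ranged from 1 to 2. In Neu against CTR, rises ranged from 1 to 3 among tetrahydrobiopterin genes and 0 to 1 among transport genes. The share of calls that were higher was 48.3%, 47.6% and 47.1% in Neu against CTR, Neu+NETS against CTR and Neu+NETS against Neu, and 39%, 58.3% and 59.6% with limma on log2(FPKM + 1) of the 11735 genes with a mean FPKM of at least 1, whose median over these genes was -0.081, 0.048 and 0.1. With limma on all 27487 genes the shares were 44.6%, 56.8% and 53.8%. With the replicate block, 4270 higher and 4554 lower, 3491 and 3819, and 4793 and 5415 genes were called, and no call of a member changed. No pairing by replicate number was visible. Deviations of same-numbered libraries of different groups correlated from -0.055 to 0.043, and those of differently numbered ones from -0.047 to 0.047. These correlations cannot show whether libraries shared a culture or batch. Of 86 calls of named pathway genes, 2 were lost in some alternative: Slc25a1 in Neu+NETS and Il10rb in Neu, both against CTR.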
